A study of Mus musculus with 4 samples.

Results

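The sirtuins are the NAD-dependent deacylases, and mammals have 7 of them, Sirt1 to Sirt7. They were taken by symbol from a table of normalized expression values for 28250 genes in TBV2 mouse embryonic stem cells (ESCs), where 6 of the 7 had a row. Sirt7 has no row in the value tables used here and was measured only from the deposited read alignments. TBV2 is a feeder-dependent mouse ESC line, and both groups were kept with LIF, the cytokine that holds mouse ESCs undifferentiated. The control group was kept for 24 h with solvent (2 libraries), and the treated group for 24 h with 5 µM MS-275 (2 libraries). The study used both wild-type cells and cells with an EGFP transgene, and the sources used here do not say which of them gave the RNA. Nor do they say whether the 2 libraries of a group came from separate cultures, so p-values measure only the spread between these libraries.

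MS-275 (entinostat) is a benzamide that blocks class I histone deacetylases, enzymes that hold a zinc ion in the catalytic site. Sirtuins are the other, unrelated branch of lysine deacylases, and they consume NAD for each acyl group they remove. The paper states that MS-275 inhibits class I deacetylases only. Sirt1, Sirt6 and Sirt7 act mainly in the nucleus, Sirt2 mainly in the cytosol, and Sirt3, Sirt4 and Sirt5 in mitochondria. In ESCs, Sirt1 is the member known best, as a deacetylase of p53 and of histones.

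The sequences upstream of the members were read first, since the members did not move together. RefSeq (GRCm38.p6) gave a window of 300 bases, from 250 before to 50 after a start, for each of the 7 genes, with a second start for Sirt3 and Sirt6. Each window matched the mm9 genome, on which the reads had been aligned, exactly and at 1 place. The 100 bases before the start are shown for the member with the highest level (Sirt1) and for the 4 whose level was called different in some fit (Sirt2, Sirt3, Sirt4 and Sirt7). Letters run from 5′ to 3′ on the strand of the gene, and capitals mark matches, on either strand, to GGGCGG (the GC box of Sp factors), CACGTG (an E-box), CCGGAAG (an ETS site), GCGCATGC (an NRF1 site), CCAAT (the CCAAT box) or ACTACANNT (part of the element read by Thap11, known as Ronin, and Zfp143). The last of these was added after the sequences had been read.
Sirt1, chr10:63339036-63339135, minus strand: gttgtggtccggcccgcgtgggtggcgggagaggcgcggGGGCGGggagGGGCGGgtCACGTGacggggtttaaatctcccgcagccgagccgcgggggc
Sirt2, chr7:28766652-28766751, plus strand: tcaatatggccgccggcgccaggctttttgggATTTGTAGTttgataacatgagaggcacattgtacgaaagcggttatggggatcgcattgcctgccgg
Sirt3, chr7:140881870-140881969, minus strand: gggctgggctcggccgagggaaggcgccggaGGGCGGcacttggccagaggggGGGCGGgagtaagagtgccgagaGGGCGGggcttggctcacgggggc
Sirt4, chr5:115484298-115484397, minus strand: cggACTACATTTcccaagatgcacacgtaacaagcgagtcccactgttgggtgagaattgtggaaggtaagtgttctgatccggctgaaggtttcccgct
Sirt7, chr11:120625015-120625114, minus strand: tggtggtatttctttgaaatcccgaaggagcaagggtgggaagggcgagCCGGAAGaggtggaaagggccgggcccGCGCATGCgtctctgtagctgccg

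The upstream sequences of the sirtuins held more CpG dinucleotides than the median window and mostly held a GC box, and differed in the other motifs. The Sirt1 window was 79.0% G and C with 47 CpG dinucleotides, and held 7 GC boxes and 2 E-boxes. The other windows held 15 to 24 CpG dinucleotides, against a median of 7 over all 32851 windows. ACTACANNT occurred in 4.16% of all windows, and in 2 of the 9 sirtuin windows, with 2 matches each in Sirt2 and Sirt4. Since this motif was picked after these windows had been read, the 2 shares cannot be compared. Whether it bears on the change of either gene was not tested. The ETS site occurred in 8.86% of all windows and in 1 window each of Sirt3, Sirt6 and Sirt7, and the NRF1 site in 2.71% of all windows and in 1 window each of Sirt6 and Sirt7. The GC box occurred in 35.7% of all windows and in 6 of the 9 sirtuin windows, of all members but Sirt4, the CCAAT box in 37.4% and the E-box in 7.15%. A match is a description of the letters, and no binding was measured.

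The authors deposited 2 kinds of data per library: a normalized signal for each gene, made with Genomatix by a formula that the sources used here do not give, and the positions of the reads on mm9. The alignments were 35 bases long and numbered 9785619 to 23467935 per library. In replicate 1 of both groups 53.2% and 54.4% of them repeated a position and strand already seen, and in replicate 2 none did, so alignments are given as distinct positions (9122347 to 10973569 per library). Across genes, the values of a library correlated more closely with the alignments of its group's other replicate (Pearson's r 0.935 to 0.944 on the log2 scale) than with its own (0.810 to 0.892). Replicate numbers of values and of alignments may therefore be exchanged within a group, which leaves the groups and the pairs of same-numbered libraries as they are. Change is given as a log2 fold change of MS-275 over solvent on log2(value + 0.005), with limma's adjusted p over the 20336 genes tested. It is also given with the replicate number as a block, because same-numbered libraries deviated together.

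In ESCs kept with solvent, Sirt1 had the highest level per length of exon, followed by Sirt3, and the other 5 sirtuins were far lower. Levels of different genes were compared as distinct positions per kb of merged exon in 1000000 distinct positions of the library (DPKM below, or DPM where not divided by length), since it could not be settled how the deposited value treats gene length. Sirt1 was at 27.9 ± 0.54 DPKM (SD, n = 2) with solvent and Sirt3 at 19.2 ± 1.57. Sirt6 (7.17 ± 0.18), Sirt4 (6.40 ± 0.72) and Sirt2 (6.27 ± 0.60) followed, and the libraries of Sirt4 and Sirt2 overlapped. Sirt5 was at 4.96 ± 0.72 and Sirt7 at 3.06 ± 0.45, the lowest in both libraries. With MS-275 Sirt1 stayed first in each library and Sirt5 was last in each, while Sirt7 was above Sirt5. The order below Sirt3 depends on which exons are counted, because exons of transcripts that are not protein-coding lengthen Sirt2 and Sirt7: over exons of protein-coding transcripts alone, Sirt2 was at 11.6 ± 1.04 with solvent and came after Sirt3 in both libraries, and Sirt5, not Sirt7, was last.

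**Figure D1:**
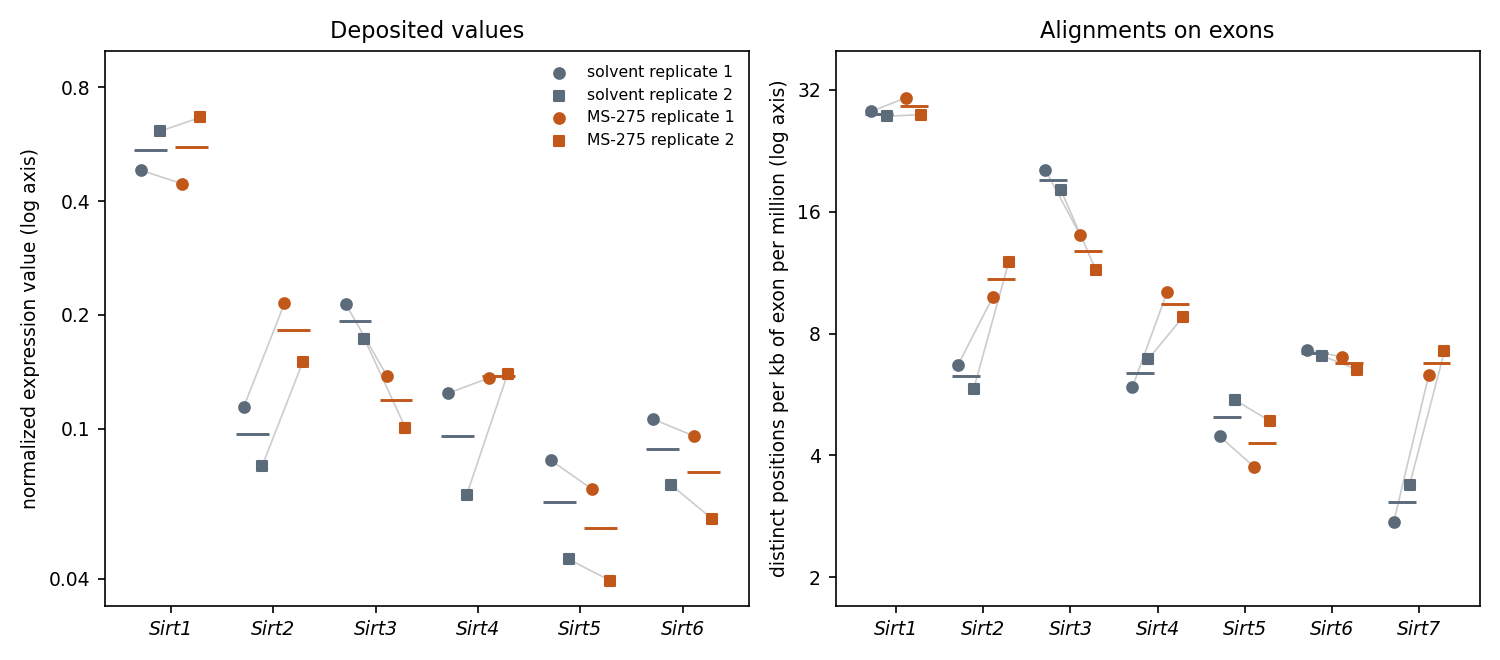
Level of each sirtuin in the 4 libraries, as the deposited normalized value (left, log axis, 6 sirtuins) and as DPKM, the distinct alignment positions per kb of merged exon in 1000000 (right, log axis, 7 sirtuins). Points are libraries, grey lines join libraries of the same replicate number and short bars are group means of n = 2. Both MS-275 libraries lie above both solvent libraries for Sirt2, Sirt4 and, on the right, Sirt7. They lie below them for Sirt3 and, on the right and by a small distance, for Sirt6. Of all genes, 32.3% lay above and 12% below in this way in the values. In distinct positions 38% lay above and 21.5% below.

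With 5 µM MS-275, Sirt2 and Sirt7 were higher and Sirt3 lower than with solvent, while Sirt1, Sirt5 and Sirt6 passed in no fit. Without a block, none of the 6 sirtuins with a value passed an adjusted p of 0.05, where 0.00492% of all genes did (1 gene, while an unadjusted p under 0.05 was reached by 2974 genes that were higher and 564 that were lower). With the replicate block, 1 sirtuin rose (Sirt2) and 1 fell (Sirt3) of the 6 tested, where 27.5% of all genes were called (21% rose and 6.46% fell). In distinct positions without a block 2 of 7 rose (Sirt2 and Sirt7) and none fell, where 14% and 4.74% of 17944 genes did. With the block 3 of 7 rose (Sirt2, Sirt4 and Sirt7) and 1 fell (Sirt3), where 28.5% and 13.1% of genes did. On all alignments with the block the same 4 sirtuins passed in the same directions, where 27% of genes rose and 11.1% fell. Few sirtuins were thus tested, against a high share of genes called. Over the 20336 genes the median change in the values was 0.20 on the log2 scale, and relative to it Sirt2 was at 0.69 and Sirt3 at -0.88. After quantile normalization that median was -0.03, and with the block Sirt2 rose and Sirt3 fell there too, where 29% of all genes were called (14.4% rose and 14.6% fell). With median-ratio scaling and the block the call was the same for both, where 28.4% of genes were called (16.7% rose and 11.7% fell). The feeder and ES cell markers given at the end of the report moved between the groups as well, and their part in the changes of the sirtuins was not tested.

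**Figure D2:**
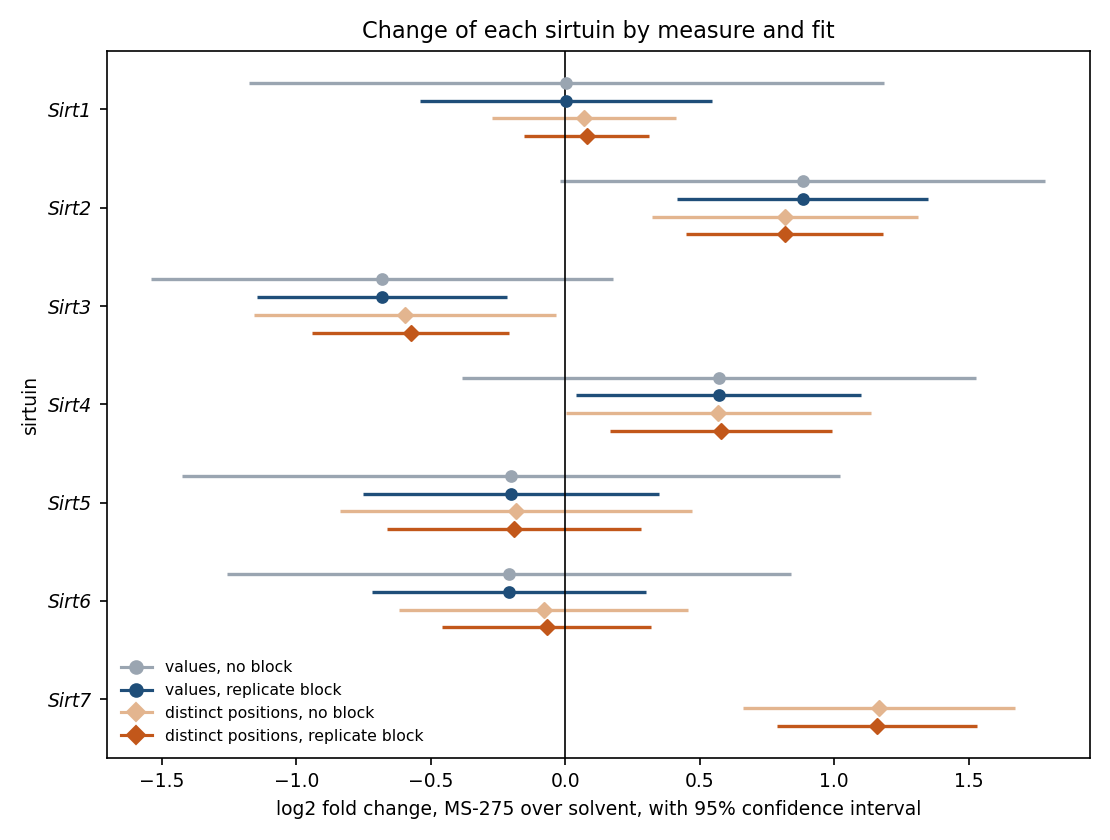
Log2 fold change of MS-275 over solvent for each sirtuin (horizontal axis) with its 95% confidence interval, from the deposited values (circles) and from distinct alignment positions (diamonds), each without and with the replicate block. The 4 points of Sirt2 lie between 0.82 and 0.88 and those of Sirt3 between -0.68 and -0.57, and the intervals with the block leave out 0 for both.

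Among the nuclear members, Sirt7 was the one that differed. Sirt7 is found in the nucleolus, where it promotes transcription of ribosomal RNA genes, and also deacetylates histone H3. Its exons (chromosome 11 of mm9 from 120479686 to 120486554, minus strand) held 155 and 170 distinct positions with solvent (replicates 1 and 2) and 296 and 406 with MS-275. Both MS-275 libraries were above both solvent libraries, also in DPM, where 38% of all genes were so. Counting error alone spans 132 to 181 positions for the lowest library and 367 to 447 for the highest (exact Poisson, 95%). The log2 fold change was 1.17 (SE 0.22, adjusted p = 0.0133 from limma-voom, 6.46e-05 with the block), a 2.25-fold rise. Left out in turn, the libraries gave 1.06 to 1.27, and without solvent replicate 1 the adjusted p was 0.0680. On all alignments without a block it was 1.23 and did not pass (adjusted p = 0.456).

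Sirt7 rose along the gene and within its coding sequence. Over coding bases alone its level was 3.66 and 5.30 DPKM with solvent and 11.1 and 13.3 with MS-275. Of its 6 exon blocks, 5 had both MS-275 libraries above both solvent libraries. Blocks of a gene come from the same 4 libraries, and the share over the blocks of all genes was not computed. By the same count Sirt1, which passed in no fit, had 2 of 10 blocks above and 2 below. Sirt4, which did not pass in the values, had 4 of 5 above. The last block, which holds the 3′ end and the most positions, had 57 and 97 with solvent and 153 and 215 with MS-275. Mafg, a small Maf transcription factor gene on the same strand, ends inside the first exon block of Sirt7 and shares 124 of its bases. Mafg fell (log2 fold change -1.11 in distinct positions, adjusted p = 0.0561, 9.48e-06 with the block), and over bases shared with no other gene Sirt7 was still 2.59-fold and 2.34-fold higher in the pairs of replicates 1 and 2.

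Sirt1, the nuclear deacetylase of p53 and other transcription factors, had the same level in both groups within error. Its value was 0.482 and 0.612 with solvent and 0.445 and 0.666 with MS-275 (chromosome 10 from 62781753 to 62844452, minus strand). The libraries overlapped, and the pairs went in opposite directions (-0.11 and 0.12 on the log2 scale). This is a log2 fold change of 0.00 (SE 0.53, adjusted p = 0.999, 0.993 with the block), and its 95% interval with the block ran from 0.689-fold to 1.46-fold. Counted at distinct positions the exons of Sirt1 held 1656 and 1437 with solvent and 1488 and 1619 with MS-275. Here, with the most positions of any sirtuin, the interval with the block was narrower, from 0.900-fold to 1.24-fold. Over exons of protein-coding transcripts alone the MS-275 libraries lay above the solvent libraries, at 1.10-fold and 1.01-fold in the pairs. Over merged exons the groups overlapped for Sirt1, and there 38% of all genes had both MS-275 libraries above both solvent libraries. The RefSeq start of Sirt1, whose upstream sequence is given above, lies 42669 bases inside the outermost start that GENCODE M1 annotates, and the 5 exon blocks before it held 0 to 2 positions each per library.

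Sirt6, which removes acetyl groups from histone H3 at telomeres and at glycolytic genes, did not pass in any fit. Its value was 0.106 and 0.0708 with solvent and 0.0956 and 0.0576 with MS-275 (chromosome 10 from 81084530 to 81090542, minus strand). It was lower with MS-275 in both pairs, by less than the gap between the solvent libraries. Its log2 fold change was -0.21 (SE 0.47, adjusted p = 0.911, 0.557 with the block), with a 95% interval from 0.609-fold to 1.23-fold with the block. In DPKM both MS-275 libraries (7.01 and 6.51) lay just below both solvent libraries (7.30 and 7.05), where 21.5% of all genes did, and the log2 fold change was -0.08 (adjusted p = 0.851).

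Sirt2, the cytosolic member known as a deacetylase of alpha-tubulin, rose with the block. Its value was 0.114 and 0.0794 with solvent and 0.214 and 0.150 with MS-275 (chromosome 7 from 29551754 to 29573684, plus strand). Both MS-275 values were above both solvent values, where 32.3% of all genes were so. The pairs were at 1.89-fold each in the values, but at 1.47-fold and 2.05-fold in DPKM over merged exons. The log2 fold change was 0.88 (SE 0.40), which did not pass without a block (adjusted p = 0.299) and passed with it (SE 0.22, adjusted p = 0.00746). Sirt2 also passed in distinct positions without a block (0.82, SE 0.21, adjusted p = 0.0362) and with it (adjusted p = 0.00114). It passed in 9 of 9 fits with the block and in 1 of 10 without it, all of them fits of the same 4 libraries. A blocked fit without 1 library would rest on a single pair and has no test, and without a block the 4 fits on values that each leave out a library gave 0.63 to 1.13 (adjusted p = 0.417 to 0.946). In distinct positions without a block the call was lost without MS-275 replicate 2 (0.73, adjusted p = 0.0722), without solvent replicate 1 (0.96, adjusted p = 0.0876) and without solvent replicate 2 (0.67, adjusted p = 0.242), and kept without MS-275 replicate 1 (0.89, adjusted p = 0.0358).

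The rise of Sirt2 was seen in 8 of the 13 exon blocks that had at least 20 positions over the 4 libraries. In these, both MS-275 libraries lay above both solvent libraries, and in the other 5 the groups overlapped. As for Sirt7, the share over the blocks of all genes was not computed. The last exon, which holds the 3′ end, had 135 and 124 positions with solvent and 184 and 225 with MS-275 (12.3 and 12.7 against 20.2 and 20.6 DPM). Over coding bases the level was 10.2 and 7.97 DPKM with solvent and 12.5 and 20.9 with MS-275, with pairs at 1.22-fold and 2.62-fold.

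Sirt3, the main deacetylase of the mitochondrial matrix, fell with the block. Its value was 0.213 and 0.173 with solvent and 0.138 and 0.101 with MS-275 (chromosome 7 from 148049569 to 148068208, minus strand). Both MS-275 values were below both solvent values, where 12% of all genes were so. The log2 fold change was -0.68 (SE 0.38, adjusted p = 0.428 without a block, and SE 0.22, adjusted p = 0.0300 with it), and the pairs were at -0.61 and -0.75. On its exons 350 and 278 distinct positions with solvent stood against 201 and 197 with MS-275, a log2 fold change of -0.60 without the block (adjusted p = 0.127) and -0.57 with it (adjusted p = 0.0132). It passed in 9 of 9 fits with the block and in 0 of 10 without it, and these fits all rest on the same 4 libraries. Left out in turn without a block, the libraries gave -0.90 to -0.46 in the values and -0.79 to -0.37 in distinct positions. Of 7 exon blocks with at least 20 positions, 5 had both MS-275 libraries below both solvent libraries and 2 overlapped. Here too the share over the blocks of all genes was not computed.

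Sirt4 was higher with MS-275 in both measures without passing in the values. Sirt4 is a mitochondrial lipoamidase and ADP-ribosyltransferase that acts on pyruvate dehydrogenase and glutamate dehydrogenase. Its value was 0.124 and 0.0669 with solvent and 0.136 and 0.140 with MS-275 (chromosome 5 from 115928019 to 115934734, minus strand). Both MS-275 values were above both solvent values, where 32.3% of all genes were so, but the pairs differed, with 1.10-fold for replicate 1 and 2.09-fold for replicate 2. The log2 fold change was 0.57 (SE 0.43, adjusted p = 0.593, 0.103 with the block). Left out in turn without a block, the libraries gave 0.15 (without solvent replicate 2) to 0.99 (without solvent replicate 1). In distinct positions, of which there were 155 and 162 with solvent and 222 and 230 with MS-275, it was 0.57 (adjusted p = 0.146), and with the block 0.58 (adjusted p = 0.0241). With libraries scaled by the median ratio of genes and the block, it no longer passed (0.43, adjusted p = 0.0705).

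Sirt5, which removes succinyl, malonyl and glutaryl groups from mitochondrial proteins, was the lowest sirtuin with MS-275 and did not pass. Its value was 0.0825 and 0.0451 with solvent and 0.0693 and 0.0396 with MS-275 (chromosome 13 from 43460882 to 43490571, plus strand). The groups overlapped. The log2 fold change was -0.20 (SE 0.54, adjusted p = 0.931, 0.604 with the block), with a 95% interval from 0.594-fold to 1.27-fold with the block. The exons held 106 and 116 distinct positions with solvent and 74 and 115 with MS-275, the fewest of any sirtuin in both MS-275 libraries.

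Since Sirt2 and Sirt3 moved in opposite directions, their ratio within a library changed from solvent to MS-275. The value of Sirt2 divided by that of Sirt3 was 0.533 and 0.459 with solvent and 1.55 and 1.49 with MS-275, of which only the change and not the size can be read, since the treatment of gene length is unsettled. In DPKM over merged exons Sirt2 was below Sirt3 in both solvent libraries (6.69 against 20.3 and 5.84 against 18.1). With MS-275 it was still below Sirt3 in replicate 1 (9.86 against 14.03) and about level with it in replicate 2 (12.0 against 11.5). This order depends on the exons counted. Over exons of protein-coding transcripts alone, Sirt3 had the same levels and Sirt2 was at 12.3 and 10.9 with solvent. There Sirt2 was at 18.1 and 21.8 with MS-275, above Sirt3 in both libraries. Over coding bases with MS-275 Sirt2 was below Sirt3 in replicate 1 (12.5 against 13.9) and above it in replicate 2 (20.9 against 13.4).

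**Figure D3:**
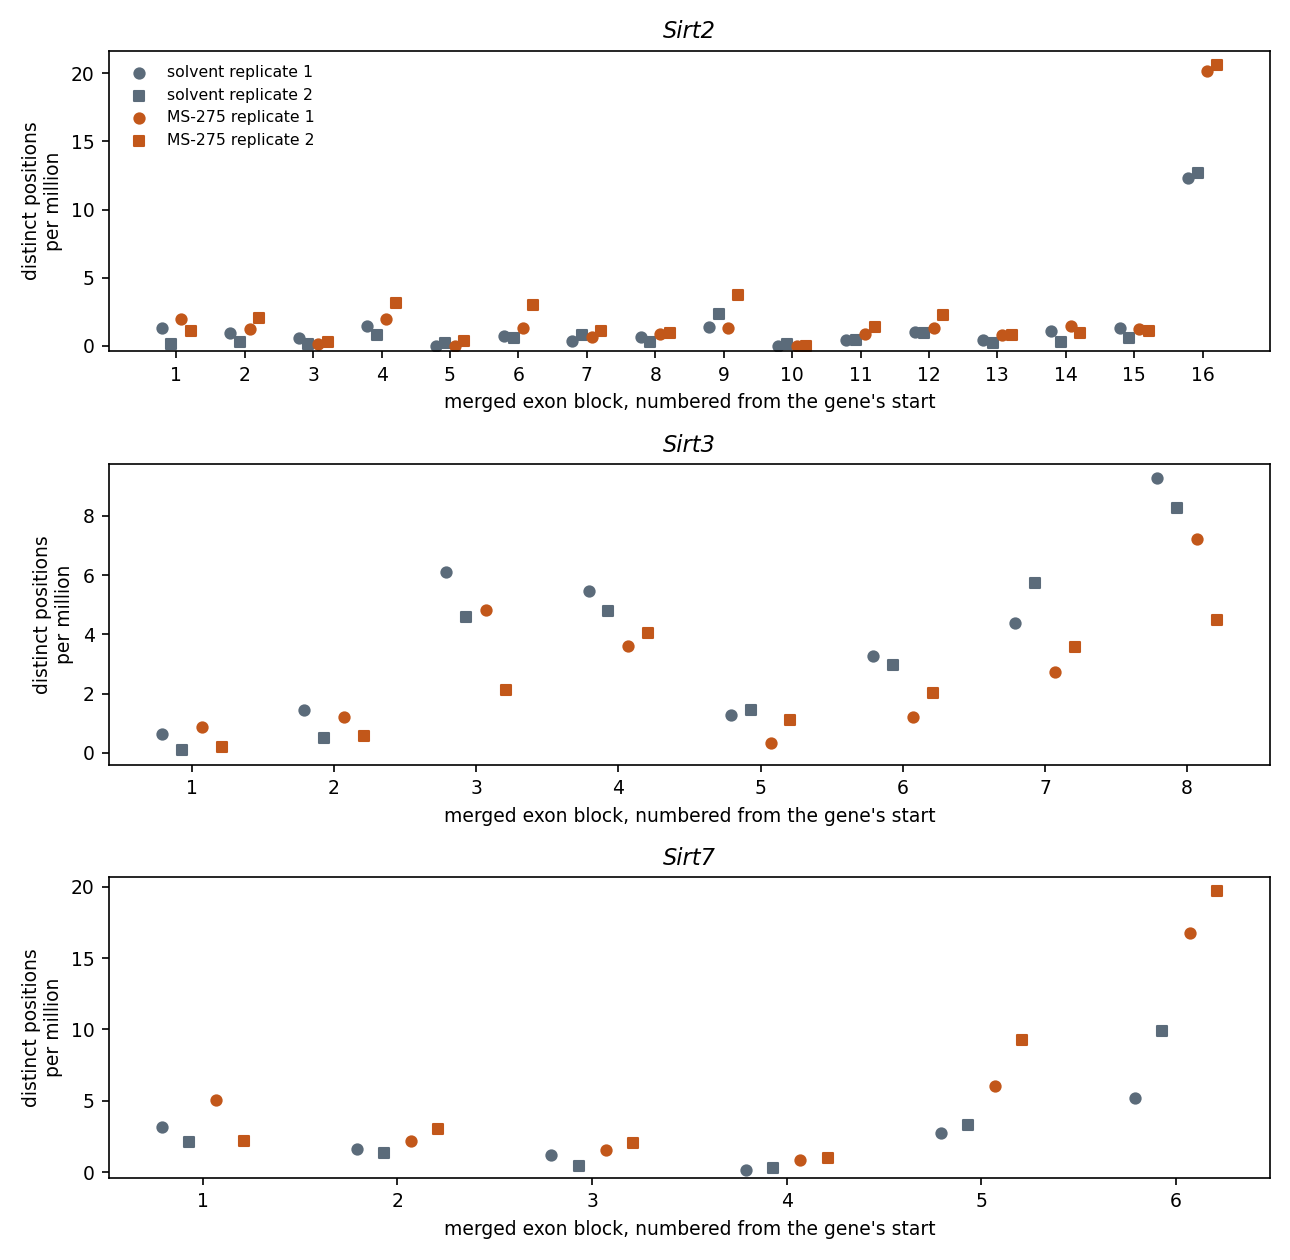
DPM, the distinct alignment positions in 1000000 (vertical axis), on each merged exon block of Sirt2, Sirt3 and Sirt7, numbered from the start of the gene, in the 4 libraries (points). For Sirt2 and Sirt7 the last block holds more positions than any other block in each library, and there both MS-275 libraries (20.2 and 20.6 for Sirt2, 16.8 and 19.7 for Sirt7) lie above both solvent libraries, and for Sirt3 they lie below on the last block (7.23 and 4.49 against 9.30 and 8.28).

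Genes that overlap a sirtuin or start within 1000 bases of its start moved in several ways. Dnajc12, a co-chaperone gene that starts 739 bases from the outermost annotated start of Sirt1 on the other strand, rose with the block while Sirt1 did not (0.0999 and 0.0731 with solvent, 0.194 and 0.276 with MS-275, log2 fold change 1.39, adjusted p = 0.109, 0.000706 with the block). The RefSeq start of Sirt1 lies 42669 bases inside that outermost start, and the exon blocks between them held few positions. Nfkbib, which encodes an inhibitor of NF-kappa-B, lies on the strand opposite to Sirt2 and shares 42 bases of exon with it. It also rose with the block (0.62, adjusted p = 0.473, 0.0441 with the block), but not when libraries were also scaled by the median ratio (0.40, adjusted p = 0.192). Psmd13, a subunit gene of the proteasome that starts 341 bases from Sirt3 and overlaps it on the other strand, was at 0.34 (adjusted p = 0.842, 0.338 with the block) and Ric8, which overlaps the other end of Sirt3, at -0.23 (adjusted p = 0.923, 0.508 with the block). Ankrd24, next to Sirt6, was at -0.02 (adjusted p = 0.991). No annotated gene met the rule for Sirt4 or Sirt5. The protocol primes cDNA with random hexamers and keeps no strand: 40.2% to 58.7% of the positions on each sirtuin lay on the plus strand in each library, so reads of an overlapping gene on the other strand cannot be told apart. Bases shared with another gene made up 13.6% of the exon bases of Sirt3 and 0% to 2.41% of the others, and without them Sirt3 was still 0.680 and 0.639 times its solvent level in the 2 pairs.

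By Euclidean distance over the 4 log2 values, the gene nearest to Sirt1 was Dld, the dihydrolipoamide dehydrogenase (distance 0.07). The nearest to Sirt2 was Pxmp2 (0.24), to Sirt3 Foxn2 (0.09), to Sirt4 F3 (0.09), to Sirt5 Btbd3 (0.06) and to Sirt6 Ctsf (0.13). With 4 libraries such profiles are common: 109 to 241 genes lay within 0.5 of each sirtuin.

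Genes that make NAD, the cosubstrate of the sirtuins, were listed beside them, and 17 of 19 had a value. With the block 3 rose, 2 fell and 12 did not pass, where 21% of all genes rose and 6.46% fell, with a median of 0.36 against 0.20 for all genes. Nampt, the rate-limiting enzyme of NAD salvage, did not pass (0.541 and 1.09 with solvent, 0.475 and 0.839 with MS-275, log2 fold change -0.28, adjusted p = 0.915, 0.478 with the block). Ido1, which opens the route from tryptophan, rose from 0 and 0.00086 to 0.0360 and 0.0287 (adjusted p = 0.0581, 1.06e-05 with the block), and the size of its change depends on the pseudocount. Qprt, which turns the quinolinate of that route into nicotinate mononucleotide, fell (0.169 and 0.0708 with solvent, 0.0421 and 0.0186 with MS-275, log2 fold change -1.78, adjusted p = 0.161, 0.000133 with the block). Nmrk1, a nicotinamide riboside kinase, rose (1.06, adjusted p = 0.285, 0.00514 with the block), and Nmnat2, a nicotinamide mononucleotide adenylyltransferase, fell (-0.96, adjusted p = 0.338, 0.00531 with the block). The calls of these 4 genes held with the block under both other scalings.

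Among 10 other genes whose products use NAD, 1 fell with the block and 9 did not pass, where 6.46% of all genes fell. It was Cd38, a NAD glycohydrolase of the cell surface, at 0.144 and 0.0602 with solvent and 0.0287 and 0.00467 with MS-275 (log2 fold change -2.45, SE 0.75, adjusted p = 0.130, 2.99e-05 with the block). Both MS-275 values were below both solvent values, where 12% of all genes were so. Parp1, the main poly(ADP-ribose) polymerase of the nucleus, was at -0.38 and did not pass (adjusted p = 0.409 with the block).

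Among partners and targets of the nuclear and cytosolic sirtuins, 23 had a value. Of these 4 rose, 2 fell and 17 did not pass with the block, where 21% of all genes rose and 6.46% fell, with a median of 0.04. Acss2, an acetyl-CoA synthetase that Sirt1 activates, rose (0.0911 and 0.0324 with solvent, 0.205 and 0.176 with MS-275, log2 fold change 1.70, adjusted p = 0.117, 0.000271 with the block). So did Srebf1, which encodes a lipid regulator that Sirt1 deacetylates (1.04, adjusted p = 0.237, 0.00240 with the block). Ppargc1a, a coactivator of mitochondrial genes, rose too (0.99, adjusted p = 0.0867, 0.00482 with the block). It stayed low, at 0.00087 and 0.00046 with solvent and 0.00645 and 0.00605 with MS-275. The size of its change depends on the pseudocount, and in distinct positions its log2 fold change was 3.05. Ubtf, an RNA polymerase I factor of the nucleolus, fell (0.422 and 0.619 with solvent, 0.245 and 0.196 with MS-275, log2 fold change -1.20, adjusted p = 0.187, 0.00236 with the block). Trp53, the p53 gene, fell as well (-0.93, adjusted p = 0.0206 with the block) and Hic1, a repressor of Sirt1, rose from values near 0.001 (0.68, adjusted p = 0.0399 with the block).

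Of 14 targets of the mitochondrial sirtuins with a value, 3 rose, 1 fell and 10 did not pass with the block, where 21% of all genes rose and 6.46% fell, with a median of 0.24. Mlycd, the malonyl-CoA decarboxylase that Sirt4 deacetylates, rose (1.12, adjusted p = 0.303, 0.00437 with the block), and Acadl, an acyl-CoA dehydrogenase that Sirt3 deacetylates, rose (0.79, adjusted p = 0.397, 0.0142 with the block) but not with the median-ratio scaling and the block (adjusted p = 0.0687). Acss1, the mitochondrial acetyl-CoA synthetase and a target of Sirt3, fell (0.259 and 0.306 with solvent, 0.183 and 0.149 with MS-275, log2 fold change -0.75, adjusted p = 0.357, 0.0224 with the block).

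The zinc-dependent deacetylases, of which the paper states that MS-275 inhibits only class I, were set beside the sirtuins for comparison. Of 11, 2 rose and none fell with the block, where 21% of all genes rose, and 9 did not pass, with a median of 0.20. With median-ratio scaling and the block 0 of the 11 were called, where 28.4% of all genes were. In distinct positions with the block 2 rose and 1 fell, where 28.5% and 13.1% of genes did. Hdac6, the other tubulin deacetylase of the cytosol, was at 0.261 and 0.246 with solvent and 0.319 and 0.588 with MS-275 (log2 fold change 0.76, adjusted p = 0.461, 0.0376 with the block), and did not pass with the median-ratio scaling and the block (adjusted p = 0.117). In distinct positions it was at 0.27 and did not pass (adjusted p = 0.0755 with the block). Hdac1 was at 0.75 (adjusted p = 0.803, 0.0343 with the block), did not pass with either other scaling, and its value differed more between replicates than between groups.

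**Figure D4:**
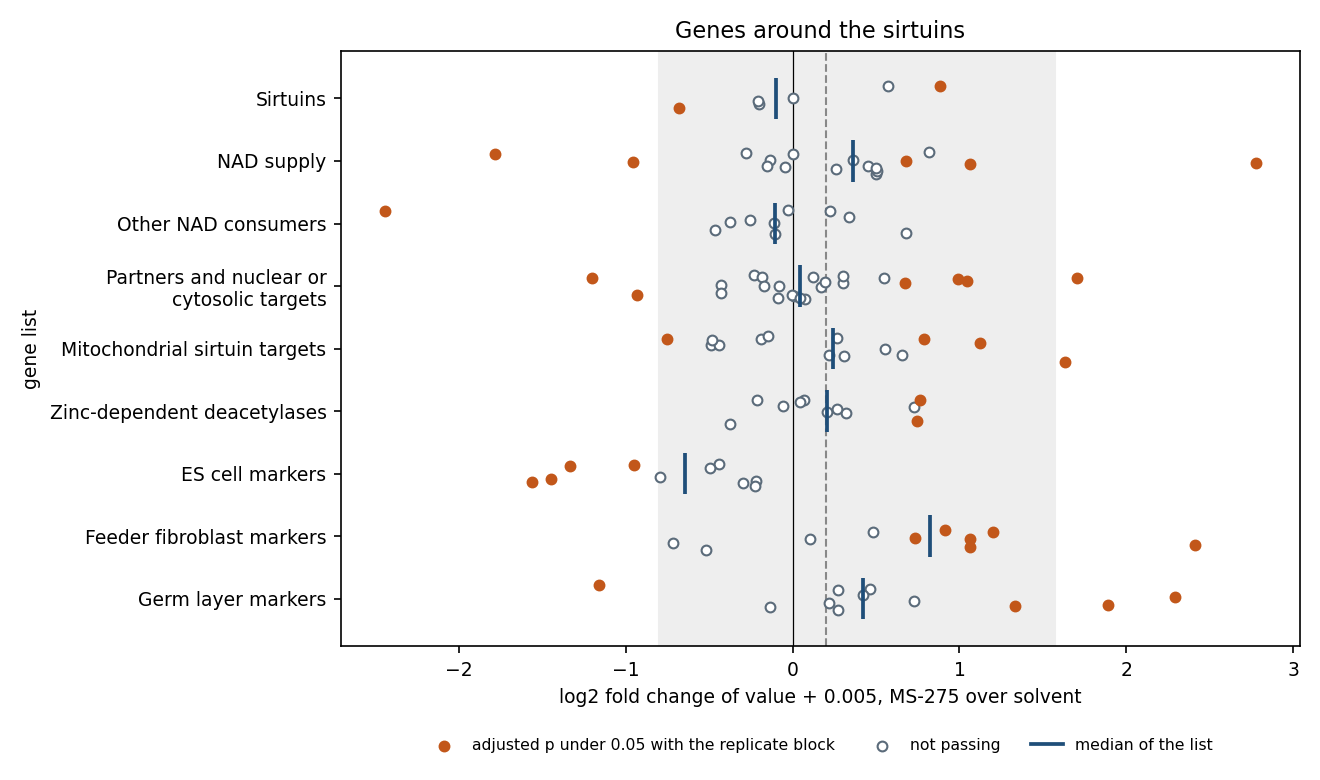
Log2 fold change of MS-275 over solvent on log2(value + 0.005) (horizontal axis) of the genes of 9 lists (vertical axis). Filled points passed an adjusted p of 0.05 with the replicate block, blue bars are list medians, the dashed line is the median of all 20336 genes (0.20) and the grey band runs from their 5th to their 95th percentile (-0.80 to 1.57). The median of the 6 sirtuins lies at -0.10, with Sirt2 and Sirt3 on either side, while ES cell markers lie below and most feeder markers above the median of all genes.

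The markers of ES cells, feeder fibroblasts and germ layers also differed between the groups. Each of 10 ES cell markers was at 0.0922 or more in every library, and their summed value was 6.08 and 23.2 with solvent and 4.83 and 13.6 with MS-275. With the block 4 of the 10 fell and 6 did not pass, where 6.46% of all genes fell. Those that fell were Fgf4 (log2 fold change -1.56, adjusted p = 0.163, 0.000337 with the block), Utf1 (-1.45), Esrrb (-1.34) and Pou5f1 (-0.95, adjusted p = 0.0473 with the block), which encodes the pluripotency factor Oct4. Of 10 feeder fibroblast markers 6 rose and 4 did not pass with the block, where 21% of all genes rose, and none was at 0 in all libraries. Their summed value was 0.275 to 0.305 with solvent and 0.584 to 0.647 with MS-275. Col1a1, a collagen gene, was at 0.0146 and 0.0101 with solvent and 0.0681 and 0.110 with MS-275 (2.41, adjusted p = 0.0814, 5.60e-05 with the block), and Col1a2 (1.06), Thy1 (0.91) and Pdgfrb (1.20) rose too. With quantile normalization and the block 3 of the feeder markers rose and 2 fell, where 14.4% and 14.6% of all genes did. Of 11 germ layer markers 3 rose, 1 fell and 7 did not pass with the block, against the same shares of all genes, with a summed value of 0.271 to 0.365 with solvent and 0.422 to 0.554 with MS-275. Nes (2.29), Brachyury (1.89) and Sox17 (1.33) rose and Sox1 (-1.16) fell. In such bulk libraries fewer cells of a type and less RNA per cell cannot be told apart.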

How the data were processed

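Per the methods of the study, poly(A) RNA was copied with random hexamers, sequenced on an Illumina GAIIx and mapped to mm9. The authors deposited, for each library, a normalized signal per gene made with Genomatix for 28250 genes, and the alignments. The aligner and the formula of the signal are not given in the sources used here. Tables of ratios and of genes past 0.001 were not used. The signal is not a count, so limma 3.58.1 in R 4.3.3 (lmFit, eBayes with a trend, two-sided, Benjamini-Hochberg) was fitted to log2(signal + 0.005) for the 20336 genes that reached 0.001 in at least 2 libraries. A block by replicate number was an alternative. The numbers pair libraries: in the authors' column headers of the values the first replicates of both groups are marked old. Deviations from group means correlated at 0.764 over 20336 genes between same-numbered libraries. The names of the alignments instead say new, and whether numbers are exchanged between the 2 kinds of data was not settled.

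Distinct positions (start and strand) were counted by the middle base of each alignment on merged exons of GENCODE M1 genes (mm9), with Python 3.11.15, pandas 2.3.3, numpy 2.4.6 and scipy 1.17.1, and tested with limma-voom for the 17944 genes that reached 10 in at least 2 libraries. Exact Poisson intervals cover counting error only. Genes were named by this rule: the sirtuins, list members past the threshold without a block or, since fewer than 4 of a list passed there, up to 4 that passed with the block, by smallest adjusted p, overlapping genes and genes starting within 1000 bases, and the nearest profile. Nampt, Parp1, Trp53 and Hic1 were named after their values were seen. The values of 1 list member are not reported here. Of 117 list entries 105 matched by symbol, 7 by another symbol or the Entrez identifier and 5 had no row. The members and lists were chosen with earlier results of these data known. Fits were tested on simulated data. Figures used matplotlib 3.10.9.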

Additional observations from a re-analysis of the deposited data

Results flagged for a closer look

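Sirt7 was singled out because its signal lies in data outside the value tables: it has no row there, and its exons held 155 and 170 distinct alignment positions with solvent (replicates 1 and 2) and 296 and 406 with MS-275, all above the limit of 3 that a count of 0 allows. Its value comes from the alignments alone, so the change of Sirt7 rests on 1 measure where those of the other 6 rest on 2.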

How the results depend on the processing

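The replicate block decided most calls. It took the number of genes called in the values from 1 to 5591 of 20336 (0.00492% to 27.5%). The number of sirtuins called went from 0 to 2 of 6, since the block gave Sirt2 (0.88) and Sirt3 (-0.68) an adjusted p under 0.05. It changed no other sirtuin's call in the values. Without the block, 0 genes were called by limma with a pseudocount of 0.001 or 0.02, no filter, quantile normalization, median-ratio scaling or no trend (at an unadjusted p under 0.05, 2965 higher and 543 lower, 2813 and 547, 3123 and 566, 2153 and 1935, 2928 and 1319, and 2376 and 510), and 531 when genes had to average at least 0.01. Leaving out 1 library, with the lone library taken to vary like the other group, gave 0 to 189 genes. Blocked fits without a library have no residual degrees of freedom and were not tested.

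With the block, quantile normalization gave 5897 of 20336 genes (29%) and median-ratio scaling 5772 (28.4%). A mean value of at least 0.01 gave 3842 of 14740, and pseudocounts of 0.001 and 0.02 gave 5436 and 4948 of 20336. Each called 2 of 6 sirtuins, with Sirt2 at 0.82, 0.66, 0.88, 0.91 and 0.79 and Sirt3 at -0.76, -0.91, -0.68, -0.70 and -0.62. Of the genes called with the block 76.5% were higher, against 49.8% with quantile normalization and 58.9% with median-ratio scaling.

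Distinct positions gave 3368 of 17944 genes (18.8%) and 2 of 7 sirtuins (Sirt2 at 0.82). With the block they gave 7471 genes (41.6%) and 4 sirtuins (Sirt2 0.82, Sirt3 -0.57, Sirt4 0.58). All alignments, chosen after seeing the data, gave 395 of 18288 genes, with Sirt7 at 1.23 not called. With the block they gave 6963 genes (38.1%) and 4 sirtuins (Sirt2 0.94, Sirt3 -0.70, Sirt4 0.87). Distinct positions scaled by the median ratio with the block, also chosen after seeing the data, gave 8157 of 17944 genes and 3 of 7 sirtuins (Sirt2 0.66, Sirt3 -0.73). Of the genes called there 53.0% were higher, against 68.6% without that scaling.

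Sirt1 changed sign with quantile normalization (-0.0095 with and without the block), median-ratio scaling (-0.23 with and without), all alignments (-9.43e-05) and scaled distinct positions with the block (-0.075). Leaving out 1 library gave -0.28 to 0.29 for Sirt1 (-0.17 without solvent replicate 1), 0.15 to 0.99 for Sirt4, -0.60 to 0.20 for Sirt5 (0.17 without MS-275 replicate 2), -0.55 to 0.13 for Sirt6 (0.07 for the other reversal) and 1.06 to 1.27 for Sirt7. The causes were not tested. Depth ran from 74 distinct positions per library (Sirt5) to 1656 (Sirt1), and how far it limits the calls was not tested.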
